A study of Mus musculus with 24 samples.

Results

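The genes of the mitochondrial respiratory chain and of ATP synthase were followed in mouse liver during the first hours of a methionine-restricted (MR) diet. Members were all rows of the deposited gene table whose names begin with Ndufa, Ndufb, Ndufc, Ndufs or Ndufv and a digit, with Uqcr, with Atp5 or with Cox4 to Cox8, together with Sdha, Sdhb, Sdhc, Sdhd and Cyc1. Assembly factors named Ndufaf were left out. This rule uses names only and gave 74 of the 9049 genes listed. By complex there were 33 genes of complex I, 4 of complex II, 8 of complex III, 13 of complex IV, and 14 of ATP synthase. A further 2 genes, Atp5s and Atp5sl, carry the Atp5 name but are not subunits, and RefSeq now calls them Dmac2l and Dmac2. Several subunits, among them Ndufs3, Uqcrc1 and Atp5g2, and all 13 subunits encoded by mitochondrial DNA were not analysed here.

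The 24 livers, read by sequencing the ends of polyadenylated RNA, were from male C57BL6/J mice aged 2 months. All of them had been kept on a reversed light cycle on the control (Con) diet, with food taken away in the light phase and given back when the dark phase began. On the test day 6 of these mice had eaten MR diet with 0.17% methionine for 3 h, and 6 had eaten Con diet with 0.86% methionine for 3 h. Another 6 had eaten MR diet for 6 h, and 6 had eaten Con diet for 6 h. Cysteine is absent from both diets, which are made of free amino acids. Each library comes from a small piece of the liver of a different mouse, so the 3 h and 6 h values are not repeated measures of the same animal.

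Complex I takes electrons from NADH and complex II takes them from succinate. Both hand them to ubiquinone, from which complex III passes them to cytochrome c and complex IV to oxygen. Complexes I, III and IV pump protons across the inner membrane, and ATP synthase lets these protons back through its c-ring to make ATP. Most of the subunits are encoded in the nucleus by many separate genes, which tissues such as liver express at high levels together with the core subunits encoded in mitochondrial DNA.

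A level is a deposited score, here called a unit, scaled between libraries by TMM, a trimmed mean of log ratios. Library totals were between 991702 and 995314 units before this scaling. These scores are not counts of reads, so read depth is unknown and the error given is the spread between mice. A library that reads 3′ ends gives about 1 tag per transcript, and levels were therefore not divided by transcript length. Defining markers of hepatocytes were high in every library: the summed level of 11 markers was between 157570 and 209127 units. There were 3 libraries that stood apart by markers of other cells. The 12 measured markers of pancreatic acinar cells summed to 1915 units in MR 3 h mouse m4223, against a median of 29 units in its group. The 8 measured markers of the adrenal gland summed to 660 units in MR 6 h mouse m4214, against a group median of 173 units. Fabp4, the 1 measured of 8 listed fat cell markers, was at 215 units in that mouse, against a median of 21.8 units. The 12 macrophage markers summed to 1425 units in Con 6 h mouse m4238, against a group median of 565 units. Of 12 lymphocyte markers, 0 are listed. Values without these 3 libraries are given for the members' medians between diets and for the members past the threshold between times. They are not given for other results, such as the group shares, the groups that do not overlap, the correlations and the other pathway lists. In whole liver, fewer cells of a type and less RNA per cell cannot be told apart.

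The subunit genes were among the most abundant transcripts of these livers. The median level of the 74 members over all 24 mice was 277 units, against 15.7 units for all genes, and 60 members lay among the 10% of genes with the highest levels. Together the 74 genes took 2.65% ± 0.0961 of all units in MR 6 h livers and 2.77% ± 0.194 in Con 6 h livers (SD, n = 6 each). They took 2.79% ± 0.176 in MR 3 h livers and 2.97% ± 0.274 in Con 3 h livers (SD, n = 6 each).

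Within a complex the levels of single genes differed widely, although each of these subunits is thought to be present in equal number in its complex, apart from the repeated subunits of the ATP synthase head and ring. In ATP synthase, Atp5b, the catalytic beta subunit, was the most abundant member with a mean of 1596 units, and Atp5l, a small membrane subunit, the least abundant with 40.2 units. In complex IV the means ran from 5.55 units for Cox7a1, the heart and muscle form of subunit 7a, to 1348 units for Ndufa4, which was first named as a complex I subunit and is now counted with complex IV. Complex I ran from Ndufa11, a membrane-arm subunit, with 33.5 units to Ndufb9, another membrane-arm subunit, with 657 units. Complex III ran from Uqcrq with 250.2 units to Uqcrh, the hinge protein, with 808 units. The 4 genes of complex II were close to each other, from 337 units for Sdhc, a membrane anchor, to 479 units for Sdhb, the iron-sulfur subunit.

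**Figure D1:**
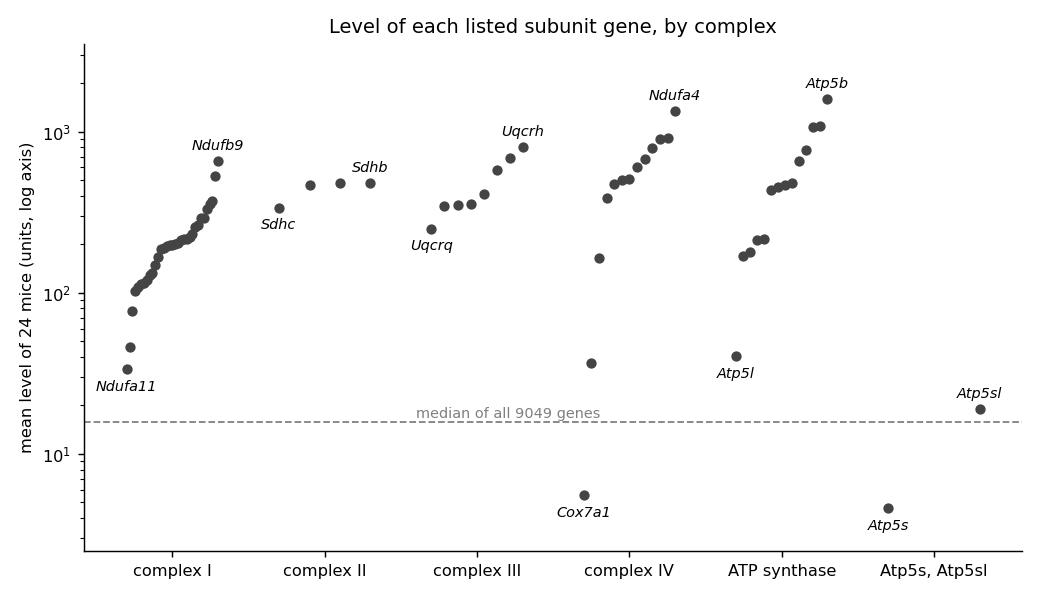
Mean level of each of the 74 genes over 24 mice, in units on a log axis, by complex; each point is a gene, the lowest and highest of each complex are named, and the dashed line is the median of all 9049 genes, 15.7 units. Most points lie above 100 units, with Cox7a1 at 5.55 units and Atp5s at 4.58 units far below the others.

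Some members share sequence near their 3′ end with other genes. Of 73 members with a protein-coding transcript in GENCODE M21, 19 shared at least 1 run of 50 bases in their last 300 bases with a transcript of another gene, mostly pseudogenes. At least 50% of such runs were shared in Cox7c (73.3%), Atp5l (70.1%) and Ndufs5 (54.6%). The median level of these 3 genes was 40.2 units, against 312 units for members with less sharing. Of the 3, Cox7c and Atp5l were low (36.5 and 40.2 units), while Ndufs5 had 116 units. Below the cut, Uqcrb (40.6% shared) had 682 units and Cox6c (38.2%) had 913 units. Ndufa11 (33.5 units) and Ndufb4 (46.2 units) were low with 0% shared. The part of sharing in the levels was not tested. How the authors' counting treated reads with several matches is not given in the sources used here, so the levels of Cox7c, Atp5l and Ndufs5 are uncertain.

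Where a subunit has tissue forms, the form known from most tissues had high levels in these livers. Only for subunit 7a could it be compared with a muscle form. Cox4i1 had a mean of 905 units, Cox6a1 673 units, Cox6b1 793 units and Cox8a 604 units, while their muscle, lung or testis counterparts were not analysed here. Cox7a2, the liver form of subunit 7a, had 474 units and Cox7a2l, a relative of it, had 165 units. Cox7a2l is described as joining complexes III and IV into supercomplexes, a role not examined in mice of this strain here. Of the genes for the identical c-ring protein, Atp5g3 had 1079 units and Atp5g1 169 units. Cox7a1 was between 2.12 and 11.8 units in MR 6 h livers and between 3.02 and 10.4 units in Con 6 h livers. The highest of these values, in MR 6 h mouse m4214, stood in the library with the highest adrenal and Fabp4 sums, and their part in it was not tested.

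The promoters of the set were examined for letters of factors known to drive respiratory genes, because nuclear subunit genes are described as sharing such factors. RefSeq promoter windows (GRCm38.p6, from 250 bases before to 50 after the start) were found for 62 of the 74 members. The motif of NRF1, GCATGCGC, was present on either strand in 12.9% of these windows, against 5.78% of the windows of all genes in the table and 2.80% of all 27025 genes with a window. The motif of ETS factors such as GABPA, CCGGAAG, was in 22.6% of member windows, against 20.3% and 9.12%. The motif of YY1, AAGATGGC, was in 16.1%, against 5.53% and 2.88%. In 9 of the 10 members with the YY1 letters these stood on the plus strand between 23 and 39 bases after the start. Among the 396 genes of the table with these letters, 49.5% had them on the plus strand after the start. The ETS and YY1 letters can overlap by the AAG that ends one and begins the other. A match is only a match of letters, and binding was not measured.

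The windows below are from members that later results turn on, with motif letters in capitals. Uqcr11 (chr10:80406772-80407071, minus strand) holds the ETS and NRF1 letters, Cox6a1 (chr5:115348909-115349208, minus strand) an overlapping pair of NRF1 matches on opposite strands and an ETS match, Ndufs7 (chr10:80249199-80249498, plus strand) the YY1 letters after the start, and Sdhb (chr4:140961021-140961320, plus strand) an NRF1 and an ETS match. Cox7a2l (chr17:83514284-83514583, minus strand) and Ndufv1 (chr19:4012706-4013005, minus strand) hold none of the 3 motifs.
Uqcr11: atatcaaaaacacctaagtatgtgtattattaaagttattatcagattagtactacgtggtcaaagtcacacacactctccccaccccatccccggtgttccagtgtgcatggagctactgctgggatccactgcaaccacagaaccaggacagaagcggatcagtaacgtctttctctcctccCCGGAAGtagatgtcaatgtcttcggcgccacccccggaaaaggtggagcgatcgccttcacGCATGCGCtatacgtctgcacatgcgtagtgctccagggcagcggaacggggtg
Cox6a1: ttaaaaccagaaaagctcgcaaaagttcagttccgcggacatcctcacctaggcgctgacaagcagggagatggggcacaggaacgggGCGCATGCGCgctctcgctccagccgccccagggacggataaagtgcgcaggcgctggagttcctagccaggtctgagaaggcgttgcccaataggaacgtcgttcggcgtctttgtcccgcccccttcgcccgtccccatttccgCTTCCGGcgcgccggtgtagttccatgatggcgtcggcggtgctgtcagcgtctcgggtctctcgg
Ndufs7: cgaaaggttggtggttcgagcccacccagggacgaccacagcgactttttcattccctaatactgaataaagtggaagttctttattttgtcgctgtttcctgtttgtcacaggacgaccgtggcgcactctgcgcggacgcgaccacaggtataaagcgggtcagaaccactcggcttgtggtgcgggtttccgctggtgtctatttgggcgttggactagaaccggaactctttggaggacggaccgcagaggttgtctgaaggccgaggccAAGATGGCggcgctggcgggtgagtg
Sdhb: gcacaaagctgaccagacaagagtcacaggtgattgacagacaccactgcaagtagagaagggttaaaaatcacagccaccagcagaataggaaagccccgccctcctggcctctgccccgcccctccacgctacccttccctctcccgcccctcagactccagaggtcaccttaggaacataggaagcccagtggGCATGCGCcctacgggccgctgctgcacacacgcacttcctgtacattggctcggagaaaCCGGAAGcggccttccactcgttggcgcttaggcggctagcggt
Cox7a2l: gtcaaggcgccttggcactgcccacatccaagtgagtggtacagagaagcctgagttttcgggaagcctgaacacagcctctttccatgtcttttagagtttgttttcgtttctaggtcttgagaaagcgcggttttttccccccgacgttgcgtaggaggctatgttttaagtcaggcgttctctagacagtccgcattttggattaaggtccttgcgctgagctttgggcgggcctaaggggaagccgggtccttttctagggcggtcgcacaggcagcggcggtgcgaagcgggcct
Ndufv1: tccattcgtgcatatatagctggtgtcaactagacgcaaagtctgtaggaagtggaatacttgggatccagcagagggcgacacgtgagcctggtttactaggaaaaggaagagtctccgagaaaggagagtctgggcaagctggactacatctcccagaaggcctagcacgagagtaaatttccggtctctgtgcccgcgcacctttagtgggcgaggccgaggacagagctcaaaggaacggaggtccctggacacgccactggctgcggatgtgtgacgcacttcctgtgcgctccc

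After 3 h of the MR diet no subunit gene differed from Con past the test. The estimates were small and mostly below 0: 62 of 74 members had a lower mean in MR livers, with a median log2 fold change of −0.09 and a range from −0.31 to 0.08. The test was limma on log2 of the level plus 1, with p-values adjusted over all 9049 genes, and 0 of 74 members were past 0.05. The background was the same, since 0% of all genes were past it in this comparison. At an unadjusted p under 0.05 there were 7 members (9.46%), against 6.66% of all genes. By the exact permutation test there were 2 (2.70%), against 6.50% of all genes. In 0 members were the 6 MR mice clear of the 6 Con mice, against 0.199% of all genes. The median of all genes was 0.00, and the median of 1690 other genes with transcripts of up to 1000 bases was −0.03, with 61.5% of them below 0. The members are short as well, with a median transcript of 659 bases against 2039 bases for all genes. The part of transcript length in the members' median was not tested beyond the fit with the length trend taken out, in which that median was −0.06. Without the 3 libraries that stood apart it was −0.09, and without Con 3 h mouse m4220 alone it was −0.06.

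By complex the medians at 3 h were alike. They were −0.09 for complex I, with 29 of 33 genes below 0, −0.06 for complex II with 3 of 4, −0.08 for complex III with 8 of 8, −0.10 for complex IV with 11 of 13, and −0.09 for ATP synthase with 10 of 14. The half-width of the 95% interval of a single gene had a median of 0.15 over the members, so that a change of about this size in 1 gene could not be told from no change.

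The genes with the smallest p in each complex show how far the groups overlapped at 3 h. Uqcr10, a small subunit of complex III, had 293 to 371 units in MR mice with a median of 325, against 324 to 407 units in Con mice with a median of 392. Its log2 fold change was −0.18 (standard error 0.08), with an adjusted p of 0.734 from limma. Atp5g3 had 913 to 1170 units in MR mice with a median of 1074, against 943 to 1352 units in Con mice with a median of 1268 (log2 fold change −0.19, adjusted p = 0.735, limma). The highest 4 Con mice lay above all 6 MR mice in this gene, and the lowest Con mouse lay near the bottom of the MR range. Cox7c, a small subunit of complex IV whose reads may be shared, had the lowest estimate of all members. It had 23.2 to 38.4 units in MR mice with a median of 34.9, against 30.9 to 50.4 units in Con mice with a median of 41.7 (log2 fold change −0.31, adjusted p = 0.739, limma). Ndufb6, a membrane-arm subunit of complex I, had 173 to 229 units in MR mice with a median of 189, against 165 to 273 units in Con mice with a median of 237 (log2 fold change −0.22, adjusted p = 0.739, limma). In complex II, Sdhd, the membrane anchor that holds the ubiquinone site with Sdhc, had a log2 fold change of −0.11 (adjusted p = 0.760, limma).

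After 6 h of the MR diet again no member differed past the test, while 0.74% of all genes did. Of the 74 genes 53 had a lower mean in MR livers, the median log2 fold change was −0.05, and the range was from −0.26 to 0.18. By limma 0 members were past the adjusted 0.05, 10 (13.5%) had an unadjusted p under 0.05, against 14.2% of all genes. By the exact permutation test, unadjusted, there were 16 (21.6%), against 13.8% of all genes. The median of all genes was 0.01, and that of the other short-transcript genes −0.03. Without the 3 libraries that stood apart the members' median was −0.07, and without Con 6 h mouse m4221 alone it was −0.02. By complex the median was −0.05 in complex I (25 of 33 genes below 0), −0.08 in complex II (3 of 4), −0.02 in complex III (5 of 8), −0.13 in complex IV (10 of 13) and −0.04 in ATP synthase (8 of 14).

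In 4 members all 6 MR mice at 6 h lay below all 6 Con mice. This is 5.41% of the members, against 1.6% of all genes whose groups did not overlap in this comparison. Cox7b, a subunit of complex IV, had 440 to 487 units in MR mice with a median of 464, against 497 to 534 units in Con mice with a median of 510. The log2 fold change was −0.15 (standard error 0.06). Cox7a2l had 138 to 156.5 units in MR mice with a median of 147, against 157.0 to 173 units in Con mice with a median of 165, and a log2 fold change of −0.15. Sdhd had 418 to 441 units in MR mice with a median of 436, against 447 to 538 units in Con mice with a median of 491, and a log2 fold change of −0.17. The gap between the groups was narrow in these 3 genes. Groups clear of each other always give the smallest exact permutation p that 6 against 6 mice allow, 0.00216 before adjustment. It therefore adds nothing to the lack of overlap by which these genes were picked. After adjustment over all 9049 genes, the p of the 3 genes from limma was between 0.230 and 0.266.

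Other genes of complexes I, III and ATP synthase had their smallest p at 6 h with groups that overlapped. Uqcrh had 706 to 785 units in MR mice with a median of 757, against 765 to 873 units in Con mice with a median of 851 (log2 fold change −0.16, adjusted p = 0.252, limma). Ndufa1, a membrane-arm subunit on the X chromosome, had 213 to 278 units in MR mice with a median of 251, against 263 to 294 units in Con mice with a median of 283 (log2 fold change −0.17, adjusted p = 0.316, limma). Atp5h, subunit d of the stalk, had 186 to 216 units in MR mice with a median of 195, against 202 to 226 units in Con mice with a median of 222 (log2 fold change −0.13, adjusted p = 0.290, limma). In complex IV, where Cox7b had the smallest p, the groups of the abundant Ndufa4 overlapped. Ndufa4 had 1194 to 1320 units in MR mice with a median of 1235, against 1303 to 1489 units in Con mice with a median of 1396 (log2 fold change −0.16, adjusted p = 0.301, limma). Atp5b, the most abundant member, had a log2 fold change of 0.03, with a 95% interval from −0.07 to 0.12.

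**Figure D2:**
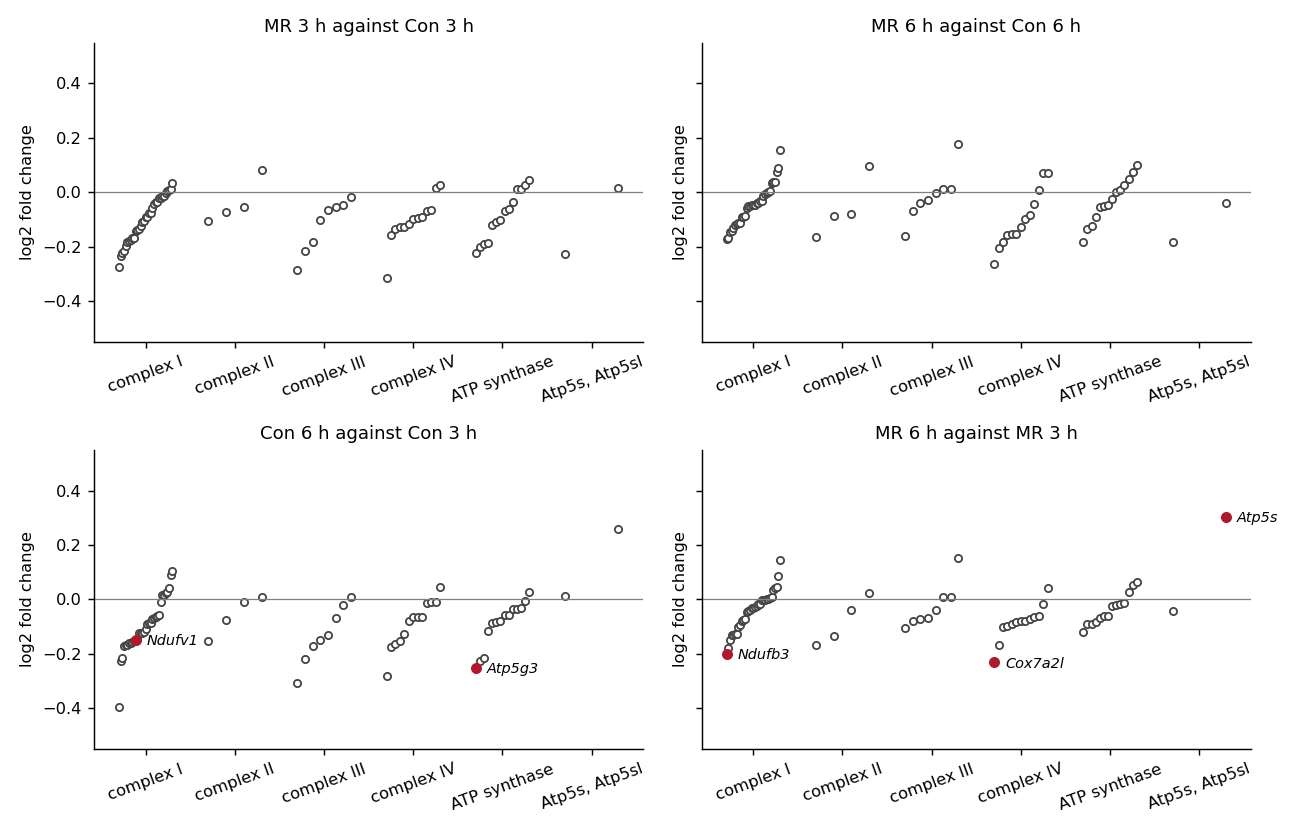
Log2 fold change of each of the 74 genes by complex in 4 comparisons (first group named over the second); filled points are past an adjusted p of 0.05 by limma and are named, open points are not. No point is filled in the diet comparisons, and all points lie between −0.40 and 0.30.

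The diet effect was not found to differ between the times in any member. The difference of the effects, 6 h minus 3 h, had a median log2 value of 0.02 over the members, with 32 of 74 below 0. By limma 0 members were past the threshold, against 0.0663% of all genes, and 0 had an unadjusted p under 0.05, against 6.83% of all genes. The smallest p values by complex were those of Atp5g3 (difference 0.24, standard error 0.12), Cox7a2l (−0.17, standard error 0.08), Ndufs7, which carries an iron-sulfur cluster of complex I (0.43, standard error 0.24), Uqcr10 (0.18, standard error 0.12) and Sdhd (−0.06, standard error 0.09). Their adjusted p values from limma were between 0.731 and 0.936. Of the 74 genes 46 had an estimate below 0 in both diet comparisons, with 62 below 0 at 3 h and 53 at 6 h. Counts this high in each give a large overlap even without a link between them, so the 46 is not read as a repeat of a result.

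Between 6 h and 3 h on the Con diet few members changed, in a comparison in which many other genes did. It shares its 3 h mice with the diet comparison at 3 h and its 6 h mice with that at 6 h. Of the 74 genes 2 fell and 0 rose past the threshold, which is 2.70% of the members, against 19.6% of all genes. The median log2 fold change of the members was −0.08, with 61 (82.4%) below 0 and a range from −0.40 to 0.26. The median was −0.01 both for all genes (51.0% below 0) and for the other short-transcript genes (51.6% below 0). At an unadjusted p under 0.05 there were 12 members (16.2%), against 33.0% of all genes. By the exact permutation test, unadjusted, there were 8 (10.8%), against 28.3% of all genes. In 0 members were the groups clear of each other, against 6.09% of all genes. By complex the median was −0.11 in complex I (26 of 33 genes below 0), −0.04 in complex II (3 of 4), −0.14 in complex III (7 of 8), −0.06 in complex IV (12 of 13) and −0.07 in ATP synthase (13 of 14). The smallest p elsewhere were those of Sdhb (log2 fold change −0.15, adjusted p = 0.171), Cyc1, the heme subunit of complex III (−0.15, adjusted p = 0.0763), and Cox5a of complex IV (−0.15, adjusted p = 0.0729), all by limma.

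Ndufv1, the subunit of complex I that binds NADH and flavin (chr19:4007499-4012755, GRCm38.p6), fell with time on the Con diet. It had 174 to 207 units at 6 h with a median of 185, against 200.4 to 214 units at 3 h with a median of 207. In 5 of the 6 mice at 6 h it was lower than in every mouse at 3 h. The means were 187 ± 12.5 units at 6 h and 207 ± 4.88 units at 3 h (SD, n = 6 each), a difference of −0.15 on the log2 scale (standard error 0.05, adjusted p = 0.0329, limma). Atp5g3, which encodes the c-ring protein of ATP synthase (chr2:73908447-73912464), fell as well. It had 886 to 1197 units at 6 h with a median of 994, against 943 to 1352 units at 3 h with a median of 1268. The means were 1012 ± 118 units at 6 h and 1207 ± 155 units at 3 h (SD, n = 6 each), or −0.25 in log2 fold change (standard error 0.08, adjusted p = 0.0351, limma). The groups overlapped in both genes. Without the 3 libraries that stood apart, or with only the 12 Con libraries in the fit, 0 members were past the threshold.

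Single Con mice decided how many members were past the threshold on this diet. Leaving out each mouse in turn gave between 0 and 7 members. There were 7 without Con 3 h mouse m4218, in which 9 of the members lay above their mean over all mice, and 7 without Con 6 h mouse m4221, in which 67 did. There were 0 without Con 3 h mouse m4215, m4217 or m4233 or Con 6 h mouse m4231 or m4234, and 1 without Con 3 h mouse m4220 or Con 6 h mouse m4238 or m4241.

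Between 6 h and 3 h on the MR diet 2 members fell and 1 rose past the threshold. This is 4.05% of the members, against 28.1% of all genes. The median log2 fold change was −0.05 with 57 members (77.0%) below 0, and 4 members (5.41%) had an unadjusted p under 0.05, against 38.1% of all genes. The median was −0.01 both for all genes (51.5% below 0) and for the other short-transcript genes (52.0% below 0). By the exact permutation test, unadjusted, 12 members (16.2%) were under 0.05, against 40.4% of all genes. In 0 members were the groups clear of each other, against 15.5% of all genes. Of the 74 genes 48 had an estimate below 0 in both time comparisons, with 61 below 0 on Con and 57 on MR. Such counts also give a large overlap without a link between the comparisons. By complex the median was −0.03 in complex I (25 of 33 genes below 0), −0.09 in complex II (3 of 4), −0.05 in complex III (5 of 8), −0.08 in complex IV (12 of 13) and −0.04 in ATP synthase (11 of 14). The smallest p elsewhere were those of Sdhb (log2 fold change −0.17, adjusted p = 0.108), Uqcrh (−0.11, adjusted p = 0.214) and Atp5c1, the gamma subunit of ATP synthase (−0.09, adjusted p = 0.190), all by limma.

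Cox7a2l (chr17:83501917-83514333) was the member with the smallest adjusted p. It had 138 to 157 units at 6 h with a median of 147, against 153 to 197 units at 3 h with a median of 175. Of the 6 mice at 6 h, 4 lay below the whole 3 h range. The means were 148 ± 7.14 units at 6 h and 174 ± 16.1 units at 3 h (SD, n = 6 each), or −0.23 in log2 fold change (standard error 0.06, adjusted p = 0.00500, limma). Its adjusted p was between 0.00160 and 0.0161 in all alternatives run, including each mouse left out. Ndufb3, a membrane-arm subunit of complex I (chr1:58586397-58595964), had 145 to 167 units at 6 h with a median of 153, against 164 to 187 units at 3 h with a median of 178. The log2 value of the change was −0.20 (standard error 0.07, adjusted p = 0.0463, limma), and its adjusted p was between 0.0123 and 0.0907 with each mouse left out. Ndufb3 was past the threshold in 7 of these 24 fits and not in 17, and in 10 of the 11 other settings. Of its 50-base runs 19.1% were shared with a pseudogene. Atp5s (chr12:69724913-69744665), known as a factor for ATP synthase coupling and now named as an assembly factor, rose. It had only 3.89 to 5.29 units at 6 h with a median of 4.98, against 3.02 to 4.05 units at 3 h with a median of 3.88. The log2 value of the change was 0.30 (standard error 0.10, adjusted p = 0.0314, limma), on deposited values that are whole numbers and so take few different values in this gene. With a pseudocount of 5 it was 0.17 (adjusted p = 0.0349, limma). Without the 3 libraries that stood apart Cox7a2l (adjusted p = 0.00890) and Ndufb3 (adjusted p = 0.00778) were past the threshold by limma and Atp5s was not (adjusted p = 0.0637). With each mouse left out 1 to 3 members were past the threshold, with 1, Cox7a2l, without MR 3 h mouse m4210 or MR 6 h mouse m4219, m4239 or m4242.

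**Figure D3:**
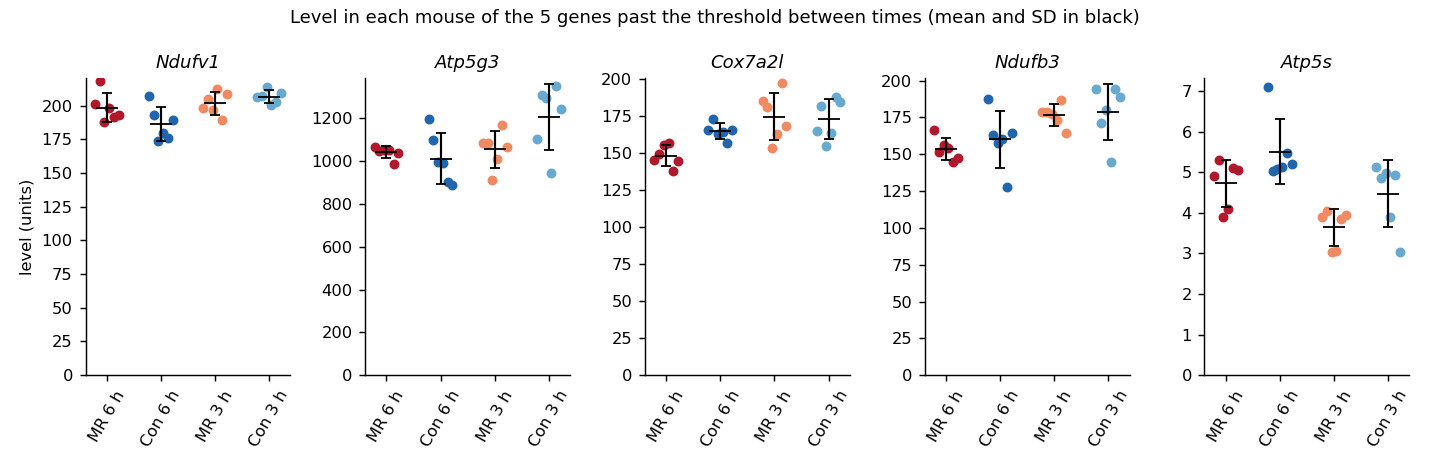
Level in units of the 5 genes past the threshold between times, in each of the 24 mice by group; points are mice, and the black marks are the mean and SD of 6 mice. In each comparison past the threshold the groups overlap: in Cox7a2l the MR 6 h mice lie between 138 and 157 units and the MR 3 h mice between 153 and 197 units.

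The subunit genes were high or low together in single mice of a group. In Con 3 h mouse m4220, 71 of 74 members were above their mean over all 24 mice, and 69 were in Con 3 h mouse m4215. In Con 3 h mouse m4218 only 9 were, the counts in the other groups running from 6 in MR 6 h mouse m4242 to 67 in Con 6 h mouse m4221. The median deviation of the members from their 24-mouse mean, on the log2 scale, was between −0.13 and −0.02 in MR 6 h mice, between −0.10 and 0.13 in Con 6 h mice, between −0.10 and 0.09 in MR 3 h mice, and between −0.15 and 0.23 in Con 3 h mice. The Con 3 h group therefore held both the highest and the lowest mouse, and the 6 MR 6 h mice were all below 0. Mouse m4220 ranked first in each of the 5 complexes. The other genes with short transcripts moved in the same mice by smaller amounts, with a median deviation of 0.09 in mouse m4220 and −0.05 in mouse m4218.

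**Figure D4:**
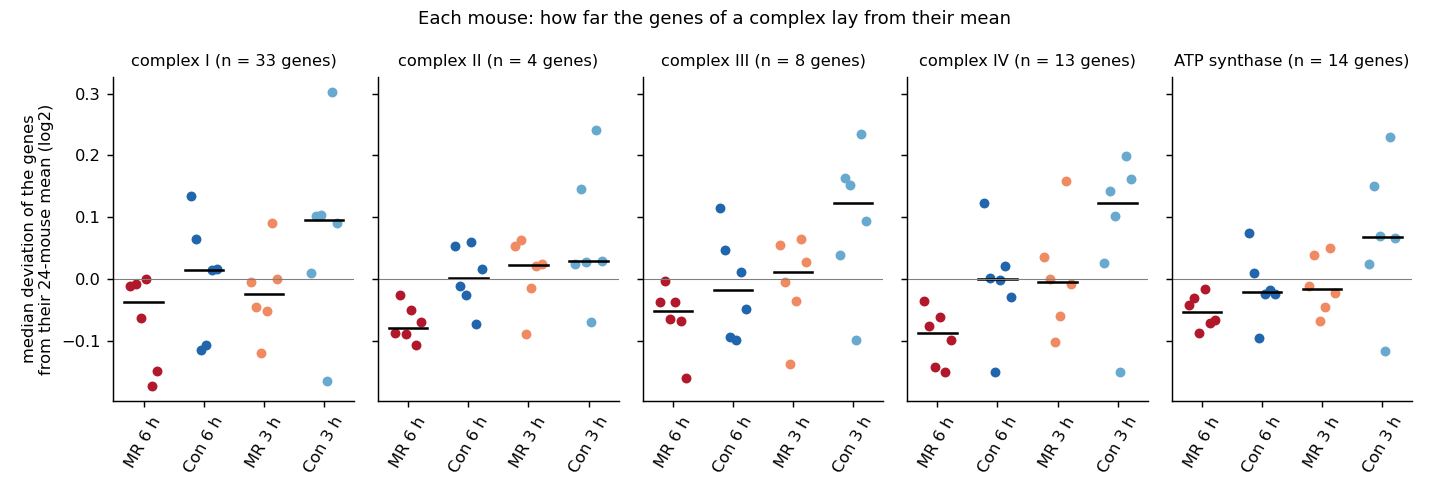
Median deviation of the genes of each complex from their 24-mouse mean, on the log2 scale; each point is a mouse, the black line is the group median, and the number of genes stands above each panel. The Con 3 h mice spread widest, from −0.16 to 0.30 in complex I, and the groups overlap in every complex.

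Part of this spread was shared by some subunits and not by others. Uqcrq, a small subunit of complex III, varied most among members above 10 units. Its coefficient of variation within groups was 29.2%, against a median of 9.10% over the members, and 10.1% in 838 other genes of like level. It had 166 to 323 units in MR 6 h mice with a median of 280, and 134 to 323 units in Con 6 h mice with a median of 230.5. It had 154 to 352 units in MR 3 h mice with a median of 215, and 149 to 376 units in Con 3 h mice with a median of 319. The highest mouse had more units than the lowest by a wide margin in all 4 groups, and the groups overlapped.

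The same mice were high or low in a set of further subunits. After the group means were taken out, the log2 level of Uqcrq went with that of Uqcr11, another small subunit of complex III, with Pearson r = 0.97 and Spearman rho = 0.94 over 24 mice. Without the 2 mice farthest from the median r was 0.96. For Cox6a1 r was also 0.96, for Ndufa13, a membrane-arm subunit, 0.95, for Ndufs7 0.95, for Atp5d, the delta subunit of the ATP synthase head, 0.94, and for Ndufb7 0.93. In all, 15 of the other 73 members (20.5%) had r above 0.8, against 4.06% of the 838 other genes of like level and 2.16% of all genes. By complex these were 9 genes of complex I, 2 of complex III, 3 of complex IV and 1 of ATP synthase. The other 58 members had r of 0.8 or less, and 8 members had r below 0. Among those with low or negative r, it was −0.65 for Ndufs1, the largest subunit of complex I, −0.52 for Sdha, the flavin subunit of complex II, −0.36 for Atp5a1, the alpha subunit of ATP synthase, and 0.01 for Atp5b. These values describe mice measured in the same libraries and were looked at after the spread was seen, so no p is given.

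Genes outside the respiratory chain had values as high. The 10 non-members with the highest r, from 0.95 to 0.97, included Rplp1 and Rpl36, which encode ribosomal proteins, Oaz1, the ornithine decarboxylase antizyme, Timm13, a mitochondrial import chaperone, and Romo1, a small inner membrane protein. The transcripts of the 15 members above 0.8 had a median GC content of 55.5%, against 49.9% for the other members. For the 34 other genes of like level above 0.8 it was 58.1%, against 50.4% for the 838 genes. For the diet the 15 genes had a median log2 fold change of −0.18 after 3 h and 0.00 after 6 h, and the 58 remaining members −0.07 and −0.08. Between times the 15 genes had a median of −0.17 on Con and 0.00 on MR, and the 58 remaining members −0.06 and −0.07. Of the 15 genes, Ndufb11 shares 16.7% of its 50-base runs with a pseudogene, and Uqcr11, Cox6a1 and Ndufa13 share 2.79% or less. The part of GC content or of the libraries in this shared spread was not tested.

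**Figure D5:**
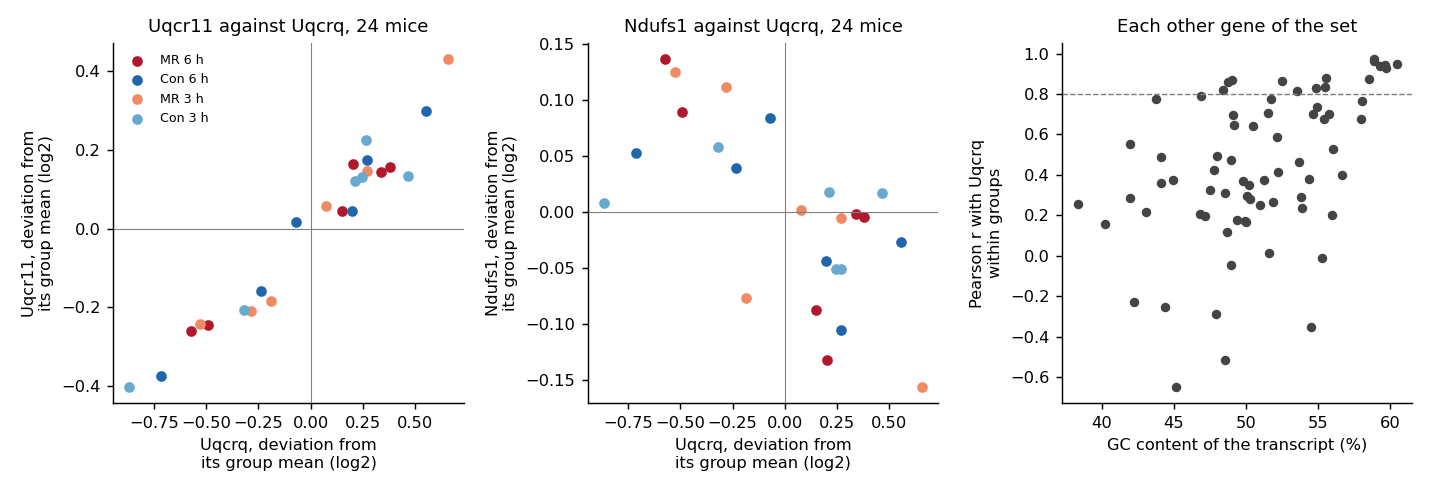
Deviation from the group mean on the log2 scale in 24 mice, Uqcr11 against Uqcrq (left) and Ndufs1 against Uqcrq (middle), coloured by group; right, the r of each other member with Uqcrq against the GC content of its transcript in percent, with a dashed line at 0.8. Mice of all 4 groups lie along 1 line for Uqcr11 (r = 0.97), while Ndufs1 runs the other way (r = −0.65), and genes such as Ndufs7 (GC content 59.6%) lie at the upper right.

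Other genes of the same pathway were read from lists of known function. Of 57 assembly factors, which build the complexes but are not part of them, 49 were measured. At 3 h of MR 0 changed, against 0% of all genes. At 6 h 1 fell (2.04%, against 0.74% of all genes), Lyrm2, a small mitochondrial protein. It had 21.7 ± 2.1 units in MR 6 h livers and 27.8 ± 2.0 units in Con 6 h livers (SD, n = 6 each), or −0.34 in log2 fold change (standard error 0.07, adjusted p = 0.0121, limma). Its groups did not overlap, with 19.1 to 24.6 units in MR mice and 25.4 to 31.0 units in Con mice. Of all genes 1.6% had groups that did not overlap in this comparison. Between times on the Con diet 8 of the 49 factors fell and 1, Lyrm2, rose, and on the MR diet 12 fell and 1 rose. These are 18.4% of the factors on Con, against 19.6% of all genes, and 26.5% on MR, against 28.1% of all genes, so the shares were near those of all genes. Ndufaf4, an assembly factor of complex I, fell most clearly. It had 28.3 ± 1.6 units at 6 h and 45.6 ± 4.2 units at 3 h on MR (SD, n = 6 each), a log2 fold change of −0.67 (adjusted p = 1.69e-06, limma). On Con it had 30.9 ± 4.9 units at 6 h and 44.9 ± 4.2 units at 3 h, a log2 fold change of −0.53 (adjusted p = 6.93e-05, limma). Foxred1, a further complex I assembly factor, fell by 0.30 on the log2 scale on MR and fell by 0.26 on Con. Tmem186, also of complex I assembly, fell by 0.51 on MR and fell by 0.32 on Con.

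Of the listed enzymes that feed the chain, and of the carriers, 0 were past the test between diets. Of all genes 0% were past it at 3 h and 0.74% at 6 h. Of 19 measured genes of pyruvate oxidation and the citric acid cycle, 5 fell and 1 rose between times on MR, and 5 fell on Con. These are 31.6% on MR, against 28.1% of all genes, and 26.3% on Con, against 19.6% of all genes. Fh1, fumarase, had 237 ± 6.4 units at 6 h and 359 ± 29 units at 3 h on MR, and 252 ± 25 units at 6 h and 361 ± 25 units at 3 h on Con (SD, n = 6 each). Its log2 fold change was −0.59 on MR and −0.52 on Con (adjusted p = 3.91e-07 and 9.74e-06, limma). Idh3a, a subunit of isocitrate dehydrogenase, fell by 0.50 on MR and fell by 0.44 on Con, and Cs, citrate synthase, was the gene that rose on MR, by a log2 fold change of 0.33. Of 8 carriers and channels for ADP, ATP and phosphate, 3 rose and 1 fell on MR (50.0%, against 28.1% of all genes). On Con 1 fell (12.5%, against 19.6%), and with 8 genes these shares are coarse. The one that fell on both was Vdac2, an outer membrane channel, with log2 fold changes of −0.20 on MR and −0.23 on Con. Slc25a25, a carrier of ATP and magnesium with phosphate, rose on MR with a log2 fold change of 0.50, and on Con its log2 fold change was 0.01, and the difference of the diet effects was 0.48 (adjusted p = 0.636, limma).

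Genes for coenzyme Q and for the control of respiratory genes made up the remaining lists. Of 11 measured genes of coenzyme Q synthesis, 2 rose and 1 fell on MR between times (27.3%, against 28.1% of all genes), and 2 rose and 2 fell on Con (36.4%, against 19.6%). Adck3, a kinase-like protein of this pathway, rose by a log2 fold change of 0.69 on MR and 0.60 on Con, and Coq10b, a coenzyme Q binding protein, fell by 0.45 and fell by 0.48. Of 11 electron carriers and other donors to ubiquinone 0 changed in any comparison. Of all genes 28.1% did between times on MR and 19.6% on Con. Of 15 measured regulators, 2 rose and 4 fell on MR (40.0%, against 28.1% of all genes), and 1 rose and 2 fell on Con (20%, against 19.6%). Esrra, a nuclear receptor known to drive respiratory genes, had 22.2 ± 2.6 units at 6 h and 29.1 ± 5.2 units at 3 h on MR, and 19.8 ± 4.2 units at 6 h and 35.9 ± 6.0 units at 3 h on Con (SD, n = 6 each). Its log2 fold change was −0.37 on MR and −0.84 on Con (adjusted p = 0.0471 and 0.000138, limma). Gabpa, the ETS factor whose letters were searched above, rose with log2 fold changes of 0.20 on MR and 0.28 on Con, and Pprc1, a relative of the coactivator PGC-1, fell by 0.51 and fell by 0.56. Of 7 measured genes for subunits and associated proteins that the name rule leaves out, 1, Smim20, fell on both diets, by 0.22 on MR and by 0.21 on Con. Smim20 encodes a small protein linked to complex IV. The 1 gene is 14.3% of the list, against 28.1% of all genes on MR and 19.6% on Con. The remaining 6, among them Cycs, which encodes cytochrome c and is also in the electron carrier list, did not pass the test.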

How the data were processed

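Liver RNA of 24 mice in 4 groups of 6 had been made into QuantSeq 3′ libraries and read as 50 bp forward reads. GRCm38 and DESeq2 1.22.2 are listed among the submitters' processing notes. The sources used here do not give the treatment of reads with several matches or any filter behind the deposited table. The authors deposited a score per gene, brought to library totals of 991702 to 995314 and rounded to whole numbers, and the same score divided by a size factor of 0.949 to 1.08. Since these are not counts, no count model was run and read depth is unknown.

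The score was scaled by TMM (trimming 30% by log ratio and 5% by mean) and tested on log2 of the value plus 1 by limma 3.58.1 (R 4.3.3, statmod 1.5.0) with 4 group means over all 24 libraries, a trended robust prior and Benjamini-Hochberg adjustment over 9049 genes at 0.05. The fit was first tested on simulated data. Single members also had an exact two-sided permutation test over mice. These p-values measure the spread between mice. Alternatives were other scalings, pseudocounts, filters, priors, library sets and weights, length and GC trends, and each mouse left out. The labels give no batch. Members, complexes and lists were chosen with earlier results of these data known. Genes named are every member past the threshold, the smallest p of each complex in each comparison, the highest and lowest level of each complex, and tissue forms. Some called genes of the other lists are also named, not always those with the smallest p. The co-varying genes were chosen after their values were seen. The values of 1 member are not reported here. Motifs and sequences come from RefSeq (GRCm38.p6, first window listed per gene), transcripts from GENCODE M21.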

Additional observations from a re-analysis of the deposited data

Results flagged for a closer look

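In 5 of 148 sets of 6 mice (32 named genes and 5 complex sums in 4 groups) 1 mouse lay far from the rest by Dixon's test at the 95% level, where chance gives about 1 in 20. Cox7a1 was 11.8 units in MR 6 h mouse m4214, against 5.06 units in the next mouse. Cox8a was 757 units in MR 3 h mouse m4216, against 624 units in the next, and the complex IV sum was 8166 units in the same mouse, against 7305 units. Cox6b1 was 886 units in MR 3 h mouse m4209, against 812 units. Atp5s was 7.11 units in Con 6 h mouse m4221, against 5.48 units.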

How the results depend on the processing

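The median log2 fold change of the members kept its sign in both diet and both time comparisons under the 11 other settings (no scaling, the authors' size factors, pseudocounts of 0.5 and 5, a mean of at least 10 units, a plain prior, only the 12 libraries compared, library weights, the transcript length trend or the GC trend removed, and without the 3 libraries that stood apart), the GC setting being chosen after seeing the data. It was lowest and highest at −0.10 and −0.06 for MR at 3 h, −0.07 and −0.02 for MR at 6 h, −0.09 and −0.08 for time on Con and −0.07 and −0.04 for time on MR. With each mouse left out it ran from −0.13 to −0.06, from −0.07 to −0.02, from −0.11 to −0.05 and from −0.07 to −0.03. In both diet comparisons 0 members were past the threshold in every setting and with every mouse left out. For time on Con the count of 2 was 0 in the fit of only the 12 libraries and 0 without the 3 libraries, and between 0 and 7 with each mouse left out. For time on MR the count of 3 was between 2 and 4 in the other settings, with 4 in the fit of only the 12 libraries, and between 1 and 3 with each mouse left out. The median difference of the diet effects, 0.02, was −0.01 without Con 3 h mouse m4220. No other result changed sign. No paired analysis was possible because the mice share no numbers across groups. Depth is unknown, and rounding limits genes of a few units such as Atp5s and Cox7a1.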
